A study of Drosophila melanogaster with 3 samples.

Results

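CG2116-eGFP gave 136 reproducible peaks whose only annotated gene start was that of a noncoding RNA gene or pseudogene. They were 1.91% of the 7137 peaks in the authors' optimal IDR list (the peaks that ranked alike between replicates, by the irreproducible discovery rate). A peak belonged here when its summit lay over 500 bp from every protein-coding transcription start site (TSS) but within 500 bp of the TSS of an annotated noncoding RNA, pseudogene, tRNA, snoRNA, snRNA or microRNA precursor. For microRNA precursors and snoRNAs the TSS here is the start of the annotated short RNA, and a longer transcript that spans it can start elsewhere. The choice used positions only, not signal. Of the other IDR peaks, 5166 lay at protein-coding starts and 1835 at no annotated start.

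Embryos, collected 0 to 24 h after laying and of pooled sex, came from a transgenic fly line whose CG2116 protein carries GFP at its C terminus, and chromatin was precipitated with an antibody against GFP. The 3 libraries, labelled replicates 1, 2 and 4, form a single group with no comparison condition. Whole embryos mix all tissues and stages, so a peak gives no cell type. The labels call them biological replicates, without saying whether the embryos came from separate collections. An untagged or input library was not analysed here, and sequencing depth is not known from the files used.

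Noncoding genes in the fly are transcribed by different polymerases. RNA polymerase II makes long noncoding RNAs (lncRNAs), antisense RNAs (asRNAs), most microRNA precursors and the host transcripts from whose introns snoRNAs are cut. RNA polymerase III makes tRNAs, with promoter elements inside the gene, and the U6 spliceosomal RNA. Annotated starts of many long noncoding RNAs rest on thinner evidence than those of coding genes.

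Sequences around 6 of the strongest of these summits show how varied the bound DNA was. Each is 151 bp of the dm6 assembly (RefSeq copy), centred on the summit and written 5′ to 3′ on the noncoding gene's strand. Capitals mark matches, on either strand, to any of 11 short promoter or factor motifs, here the DREF element TATCGATA, GCAACNCT, the GAGA repeat GAGAG, the TATA box TATAAA, the initiator core TCAGTT and the Pho core GCCATNTT. The first is the strongest peak. The next has no match in the stretch printed, although the wider window searched below holds a TATAAA. The others are 4 further strong peaks at long noncoding and antisense genes, the last of them again with no match.
Hsromega, chr3R:21295989-21296139, plus strand: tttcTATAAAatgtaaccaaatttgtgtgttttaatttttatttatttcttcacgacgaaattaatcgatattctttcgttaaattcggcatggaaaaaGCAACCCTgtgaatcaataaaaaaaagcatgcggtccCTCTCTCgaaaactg
CR31840, chr2L:14024006-14024156, minus strand: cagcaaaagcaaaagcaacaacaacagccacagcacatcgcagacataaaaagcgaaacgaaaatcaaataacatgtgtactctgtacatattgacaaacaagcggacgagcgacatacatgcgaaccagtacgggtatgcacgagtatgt
CR31044, chr3R:29214376-29214526, plus strand: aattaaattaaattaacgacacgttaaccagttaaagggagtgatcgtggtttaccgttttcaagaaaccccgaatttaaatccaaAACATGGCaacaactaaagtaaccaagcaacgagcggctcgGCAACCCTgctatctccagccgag
CR46036, chr3R:17700539-17700689, plus strand: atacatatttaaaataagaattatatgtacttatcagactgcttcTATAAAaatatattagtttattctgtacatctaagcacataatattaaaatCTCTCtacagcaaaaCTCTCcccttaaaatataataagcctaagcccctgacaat
CR45806, chr3L:174642-174792, plus strand: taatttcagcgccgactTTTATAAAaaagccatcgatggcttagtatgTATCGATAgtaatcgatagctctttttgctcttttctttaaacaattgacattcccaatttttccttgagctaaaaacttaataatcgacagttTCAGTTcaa
CR45009, chrX:23007593-23007743, plus strand: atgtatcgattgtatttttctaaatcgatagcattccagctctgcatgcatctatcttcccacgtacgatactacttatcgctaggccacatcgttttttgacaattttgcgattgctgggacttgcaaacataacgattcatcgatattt

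The strongest peak by far was at Hsromega, the heat shock lncRNA whose nuclear transcript organises the omega speckles. Its pooled signal, the authors' enrichment value for the peak, was 14234, rank 22 of the whole IDR list and 10.3 times that of the next noncoding peak. The peak spanned chr3R:21295515-21296829, with its summit 63 bp upstream of the annotated start of the gene (FBgn0001234, plus strand, 21296127 to 21317836) and 2066 bp from the nearest protein-coding TSS, that of SIFaR. Signals were put on one scale across libraries by taking the nearest summit within 100 bp in each replicate and dividing by the median of all IDR peaks so matched there, a ratio called relative signal. At Hsromega it was 48.0 in replicate 1, 53.9 in replicate 2 and 41.1 in replicate 4, a mean of 47.7 ± 6.40 (SD, n = 3). All 3 libraries put it far above every other noncoding peak, and it alone held 25.7% of the 136 peaks' summed pooled signal.

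The next peaks were far lower and close to each other. At CR31840, a short lncRNA on 2L (FBgn0051840, minus strand), the relative signal was 4.59, 3.57 and 5.13 in replicates 1, 2 and 4, a mean of 4.43 ± 0.794 (SD, n = 3) with the summit 18 bp inside the gene. A weaker summit of the same gene, 184 bp upstream, had 1.33, 0.848 and 0.992. At CR44339, an lncRNA whose summit lay 4230 bp from the TSS of the Polycomb group gene Psc, the values were 3.44, 2.94 and 4.99, and at CR45433 on 3L they were 3.32, 3.16 and 4.70. CR31840 was the highest of these 3 in each replicate, while CR44339 and CR45433 changed order between replicates.

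CR45433 lay inside an annotated Rt1b transposable element, where reads can map to several copies, and how the authors treated such reads is not given in the sources used here. At CR31044, an lncRNA whose summit lay 5721 bp from the TSS of eEF1gamma, the relative signal was 3.01, 2.18 and 3.01. At CR46036, inside an intron of osa, which encodes a subunit of the Brahma chromatin remodelling complex, it was 1.98, 1.68 and 3.15. The antisense RNA gene CR45806 gave 2.51, 2.16 and 2.19, a mean of 2.29 ± 0.196 (SD, n = 3), the tightest of the 15 strongest peaks. Its TATCGATA match is printed above, but its summit lay 421 bp upstream of the annotated start. CR45009, also antisense, gave 2.03, 1.86 and 2.55 with the summit 4 bp upstream of its start.

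**Figure D1:**
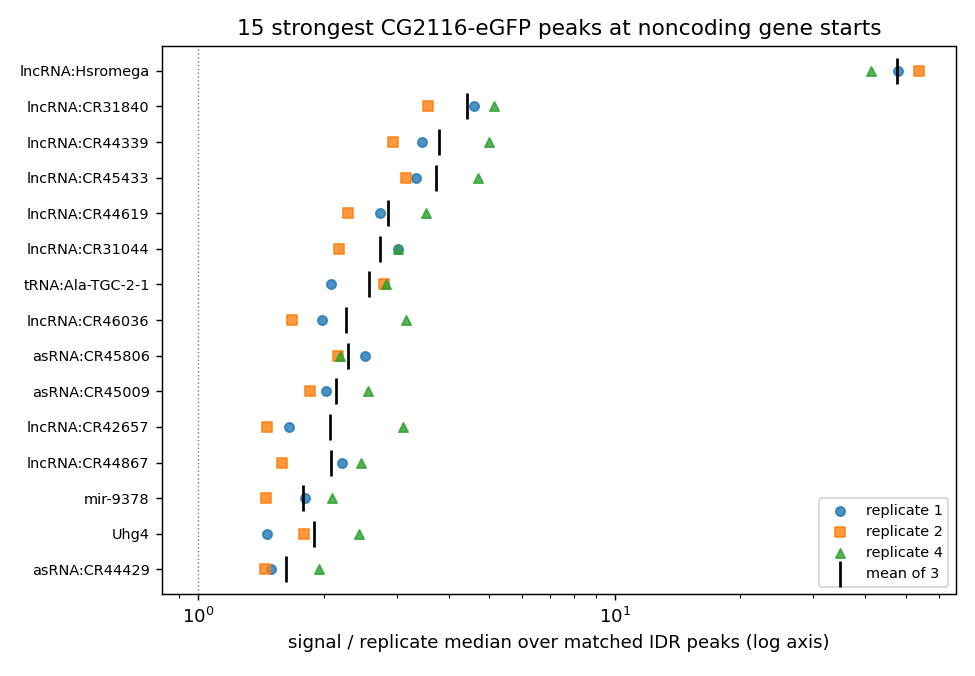
Relative signal (log axis) of the 15 strongest peaks at noncoding starts in each of 3 replicates, with the mean as a black bar and a dotted line at 1, the replicate median over matched IDR peaks. Hsromega stands alone at 41.1 to 53.9, and all 15 lie above 1 in every replicate.

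All 15 strongest peaks were recovered in all 3 replicates, 12 of their summits lay upstream of the noncoding start, 11 were intergenic and 4 lay in introns. Their coefficients of variation over the replicates ran from 8.56% to 43.3%. Replicate 4 gave the highest relative signal at 12 of them. The spread was widest at CR42657, an lncRNA whose summit lay 776 bp from the TSS of nej, the fly CBP acetyltransferase gene, with 1.65, 1.46 and 3.10. CR44867, in an intron of beat-Ib, gave 2.21, 1.59 and 2.46, and the antisense gene CR44429, in an intron of the juvenile hormone receptor gene gce, gave 1.49, 1.44 and 1.95. Together they held 46.2% of the summed signal of the 136 peaks.

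Most peaks at noncoding starts were weak. Their pooled signal had a median of 229 and ranged from 146.2 to 14234, against medians of 342 at protein-coding starts and 213.6 at no annotated start. Only 50 of 136 (36.8%) exceeded the median of the IDR list, against 58.8% at protein-coding starts and 26.2% at no annotated start. The median relative signal was 0.787, 0.731 and 0.874 in replicates 1, 2 and 4, a mean of 0.797 ± 0.0723 (SD, n = 3). Protein-coding starts had 1.17 ± 0.0195 and peaks at no annotated start 0.707 ± 0.0620 on the same scale. Each replicate's median covers only the peaks with a matched summit there, and unmatched peaks are left out. A match in all 3 replicates was found for 83.8% of the 136, 87.5% at protein-coding starts and 86.3% at no annotated start. In each replicate the noncoding median lay below that at protein-coding starts by more than the spread between replicates, while it lay above that at no annotated start, which was 0.692, 0.653 and 0.775, in all 3 replicates and by a smaller step.

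**Figure D2:**
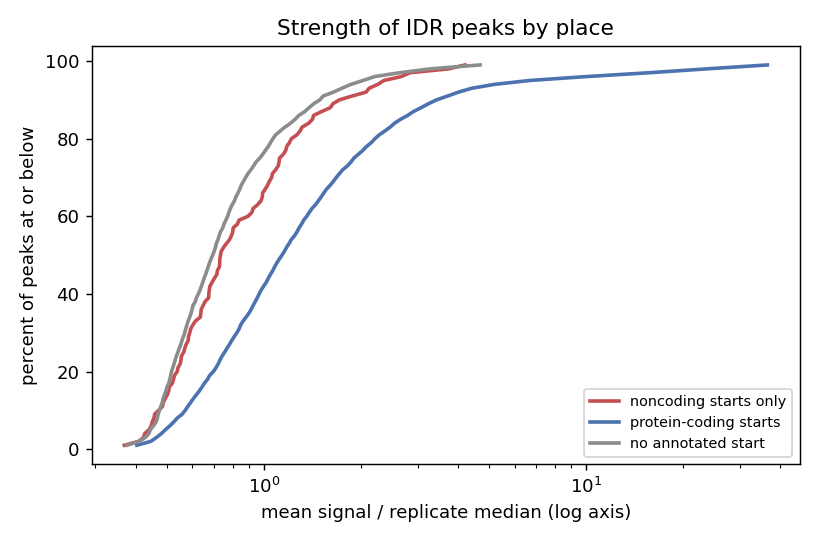
Percent of IDR peaks (vertical axis) at or below each mean relative signal (log axis), for noncoding starts only, protein-coding starts and no annotated start. The curve for noncoding starts runs close to that for no annotated start, with medians of 0.733 and 0.693, and left of that for protein-coding starts, with a median of 1.14.

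Recovery in a replicate meant that a summit among the 7137 strongest of that library lay within 100 bp, so it is in part a measure of strength and not a separate property. It held for 102 of 136 in replicate 1, 91 in replicate 2 and 114 in replicate 4, a mean of 75.2% ± 8.46 (SD, n = 3). In all 3 replicates together it was 67 of 136 (49.3%, exact 95% Clopper-Pearson interval 40.6 to 57.97%), against 64.5% of all IDR peaks, 70.9% at protein-coding starts and 47.6% at no annotated start. Intervals here and below cover counting error only, and peaks are not replicates. Taken in order of pooled signal in sets of 34, recovery in all 3 was 33, 24, 10 and 0 of 34, an order that the strength limit in its definition sets in large part. A summit was missing within 100 bp in at least 1 replicate for 22 of the 136, and 4 were recovered in no replicate, those at tRNA:Ser-GCT-1-1, CR43337, CR43916 and snoRNA:Psi18S-301.

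The share of peaks that passed IDR did not differ with distance to the noncoding start beyond its counting intervals. The authors' pooled relaxed list holds 30000 peaks, of which 23.8% are in the IDR list. Of the 793 pooled peaks at noncoding starts only, 136 (17.2%, interval 14.6 to 19.96%) were, against 49.7% at protein-coding starts and 9.75% at no annotated start. Within 100 bp of the noncoding start the share was 17.3%, at 101 to 250 bp it was 18.0% and at 251 to 500 bp it was 16.3%. At protein-coding starts it fell from 64.2% to 44.7% and 24.7% over the same distances. The median relative signal of the noncoding peaks was 0.706, 0.716 and 0.803 from nearest to farthest.

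**Figure D3:**
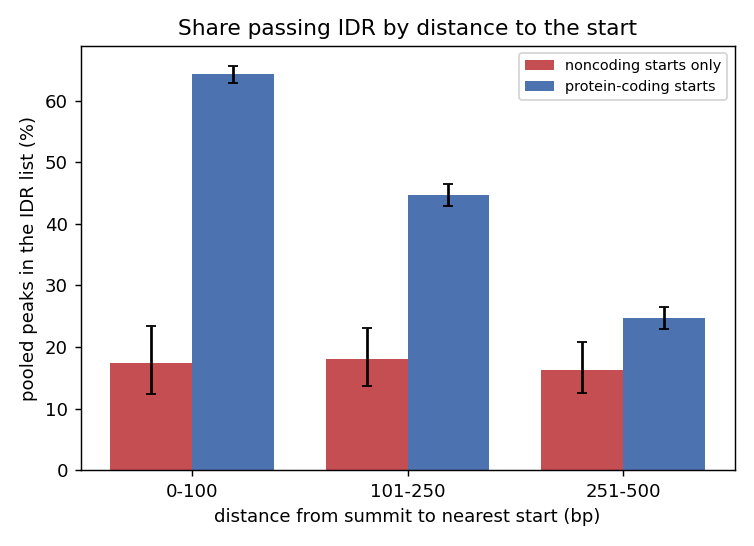
Percent of pooled peaks that are in the IDR list, by distance (bp) from summit to nearest start, with exact 95% intervals as error bars. The bars for noncoding starts stay at 16.3% to 18.0%, while those for protein-coding starts go from 64.2% to 24.7%.

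Summits spread broadly around noncoding starts, with an excess upstream. The median position was -72.5 bp, negative values being upstream, and 86 of 136 summits (63.2%, interval 54.5 to 71.3%) lay upstream, against 82.7% at protein-coding starts. Using each replicate's own matched summits, the median was -64.5, -71 and -62 bp in replicates 1, 2 and 4. Only 34 of 136 (25%) lay within 100 bp of the start, where an even spread over the window would give 20.1%, and 61.7% did so at protein-coding starts. Among the 657 lower-ranked pooled peaks at noncoding starts, 50.8% lay upstream and 24.7% within 100 bp.

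**Figure D4:**
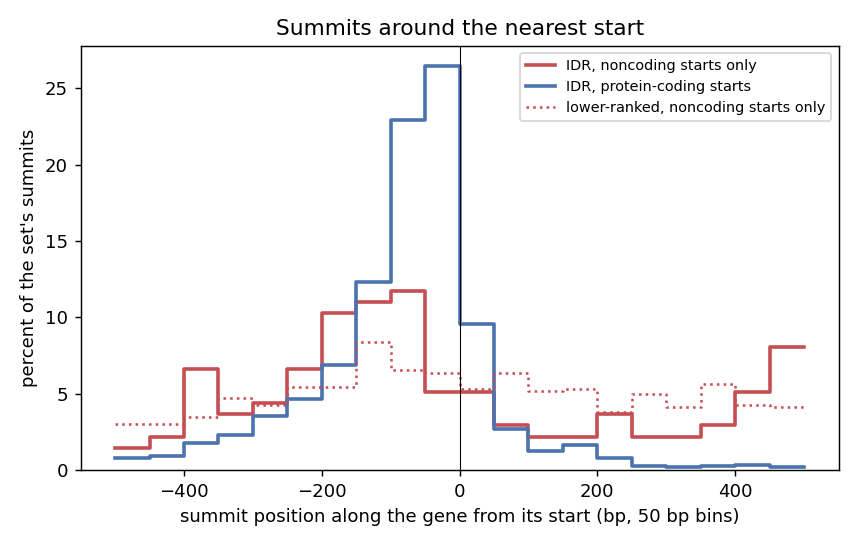
Percent of each set's summits in 50 bp bins by position (bp) along the gene from its start, negative values upstream, for IDR peaks at noncoding and at protein-coding starts and for lower-ranked pooled peaks at noncoding starts. The coding curve peaks just upstream of the start, where 61.7% lie within 100 bp, and the noncoding curves are broad.

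By class, 88 peaks lay nearest to lncRNA genes, 25 to antisense RNA genes, 8 to tRNA genes, 4 each to microRNA precursors, pseudogenes and snoRNA genes, 2 to the snoRNA host genes Uhg3 and Uhg4, and 1 to an snRNA gene. They named 125 distinct genes, since 11 genes had 2 peaks each, and 9 peaks had more than 1 noncoding gene in reach. The median relative signal was 0.743 at lncRNA and 0.826 at antisense genes. It was 0.628 at tRNA genes, 0.465 at snoRNA genes and 1.08 at the 4 pseudogenes, classes too small to rank.

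Few noncoding genes had a peak. Of 3027 noncoding genes whose starts lie over 500 bp from every protein-coding start, 158 (5.22%, interval 4.45 to 6.07%) had an IDR summit within 500 bp, against 42.6% of 13945 protein-coding genes. With any pooled peak counted the noncoding share was 24.1%. The protein-coding genes had no such distance filter, so their summits can be shared with a neighbouring gene. Without the filter, 352 of 4120 noncoding genes (8.54%) had an IDR summit. Of the 1093 noncoding genes within 500 bp of a protein-coding start, 194 (17.7%) had an IDR summit, and that summit can belong to the coding start as well. Among genes far from coding starts the share was 5.70% of lncRNA, 6.85% of antisense, 6.20% of tRNA and 3.75% of snoRNA genes, and 1.73% of microRNA precursors (4 of 231). The interval for microRNA precursors, 0.474 to 4.37%, lay below that for lncRNA genes, 4.64 to 6.92%, and overlapped those of the other classes. For microRNA precursors and snoRNA genes the start is that of the annotated short RNA, not of a longer transcript that can span it. Their shares therefore do not measure peaks at the promoters of such transcripts.

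**Figure D5:**
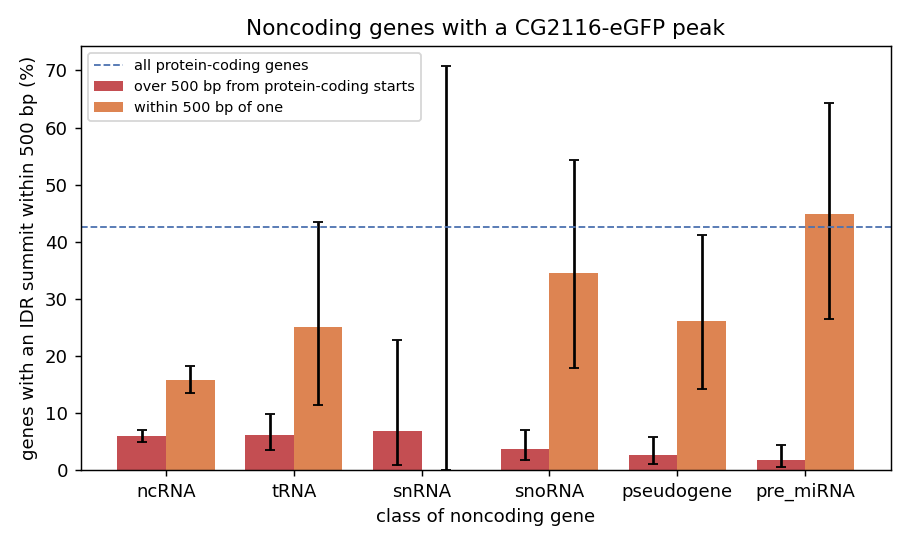
Percent of noncoding genes with an IDR summit within 500 bp, by class, for genes over 500 bp from every protein-coding start and for genes within 500 bp of one, with exact 95% intervals and a dashed line at 42.6% of protein-coding genes. Far genes stay at 1.73% to 6.90% in each class, and the near bar for snRNA rests on 3 genes. For microRNA precursors and snoRNA genes the start is that of the annotated short RNA, not of a longer transcript that can span it.

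Genes of tRNAs, the RNAs that carry amino acids to the ribosome, gave 1 strong peak. At tRNA:Ala-TGC-2-1 the relative signal was 2.08, 2.78 and 2.82 in replicates 1, 2 and 4, a mean of 2.56 ± 0.416 (SD, n = 3). Its summit lay 203 bp past the start, beyond the 3′ end of this short gene. The next tRNA peaks were much lower, at tRNA:Ile-AAT-1-9 (0.837, 0.858 and 1.27) and tRNA:Leu-CAA-2-3 (0.613, 0.689 and 0.719). The 16 tRNA genes with an IDR summit in reach shared 13 peaks, because tRNA genes cluster, and copies of one tRNA are near identical in sequence.

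Among microRNA precursors, mir-9378 in an intron of CG17124 had the strongest peak, with relative signals of 1.80, 1.45 and 2.10 and the summit 164 bp upstream. A second mir-9378 summit had 0.385, 0.661 and 0.612. At mir-9377, in an intron of Tis11, the values were 1.06, 0.785 and 1.32, and at mir-4962, in Tlk, 0.398 and 0.762 in replicates 2 and 4 with no match in replicate 1. Of 15 listed microRNA precursor and host entries (bantam, the let-7 host, the mir-309 cluster and others), none had an IDR summit within 500 bp of its own annotated start. Of them, 2 (mir-ban and let7C) had only a lower-ranked pooled peak there and 13 had no pooled peak. Over all far microRNA precursors 1.73% had an IDR summit and 16.0% any pooled peak, so these counts do not set the list apart. For a precursor the start used is that of the hairpin, and a longer gene that spans it can start elsewhere. The lncRNA gene CR43334 spans mir-ban on the same strand. Its peak, 8 bp past its own start, gave 0.843 and 0.610 in replicates 1 and 4. The iab8 gene, whose weak peak near an internal start is given below, spans mir-iab-8.

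The pseudogenes with peaks were CR43080 (1.24 in replicate 1 and 1.19 in replicate 4, no match in replicate 2), CR44003 (1.04, 1.19 and 1.11), CR31032 (0.979, 0.967 and 1.16) and CR14117 (0.695, 0.759 and 0.918). All 4 summits lay within 100 bp of the annotated start. The snoRNA peaks, at Or-CD4, Psi18S-176, Or-CD13 and Psi18S-301, were weak, from 0.425 to 0.555 in mean relative signal, and none was recovered in all 3 replicates. snoRNAs guide chemical modification of other RNAs.

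The dosage compensation RNA roX1, which helps the MSL complex raise X-linked transcription in males, had a pair of weak peaks 83 and 22 bp upstream of its starts. The summit at 22 bp gave 0.480, 0.665 and 0.470 in replicates 1, 2 and 4, a mean of 0.539 ± 0.110 (SD, n = 3), and the other gave 0.635 and 0.456 in replicates 2 and 4. roX2 had only a lower-ranked pooled peak with a signal of 56.3. At flam, the piRNA cluster transcript that restrains transposable elements in ovarian somatic cells, the values were 0.819, 0.803 and 0.565.

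Of 7 snoRNA host genes, Uhg4 and Uhg3 had peaks here. Uhg4 gave 1.46, 1.79 and 2.44, a mean of 1.90 ± 0.495 (SD, n = 3), with its summit 73 bp upstream and 542 bp from the TSS of Boot, close to the limit of the rule. Uhg3 gave 0.369, 0.685 and 0.857. Another 4 host genes (Uhg1, Uhg2, Uhg5 and Uhg8) had IDR peaks that also lie at protein-coding starts, with Uhg2 at a pooled signal of 10175. At Uhg1 the IDR summit was 463 bp from its start, and the summit nearest that start, at 46 bp, was a lower-ranked pooled peak with a signal of 48.5. Uhg7 had only a lower-ranked pooled peak. In all, 6 of 7 host genes had an IDR peak in reach, 4 of them only outside the 136, against 8.54% of all 4120 noncoding genes and 17.7% of those near a protein-coding start.

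Of 32 spliceosomal and 7SK snRNA genes, 2 had an IDR summit, through the 1 peak at U6:96Ac and U6:96Ab, at 0.243, 0.643 and 0.445. A further 11 had only lower-ranked pooled peaks, and 19 had none. Over all noncoding genes 8.54% had an IDR summit and 25.7% any pooled peak, and the list's IDR count is near that background. None of the 4 genes for 7SL, RNase P and RNase MRP RNA had an IDR peak, a count too small to read against that background. In the bithorax complex, the iab8 RNA had a weak peak (0.860, 0.172 and 0.537, a mean of 0.523 ± 0.344), while bxd and iab4 had only lower-ranked pooled peaks. The iab8 values span so wide a range that its level is not resolved. Its IDR summit lay 264 bp past an annotated start inside the gene, at 16899832, and not at the gene's 5′ end at 16923231. The summit nearest a start of iab8, at 56 bp, was a lower-ranked pooled peak with a signal of 93.2.

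Peaks at noncoding starts were mostly intergenic, as were those at protein-coding starts (64.1%). Of 136, 92 (67.6%) lay outside protein-coding genes, 42 (30.9%) in introns and 2 in exons, whereas 65.2% of IDR peaks at no annotated start were intronic. The nearest protein-coding TSS was a median of 2531 bp away, from 517 to 48969 bp, and 27 peaks lay within 1000 bp of one. In 3 cases, CR45433, CR46475 and CR45124, the summit was in a transposable element, and 11 lay beside a stronger summit within 400 bp.

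Arm 2R held 38 of the peaks, arms 2L and 3R had 25 each, 3L had 23, the X chromosome 20 and the small chromosome 4 only 5. As a share of the arm's IDR peaks they were 1.51% to 2.72% on the large arms and 8.77% (5 of 57, interval 2.91 to 19.3%) on chromosome 4. Those 5 are at 4 genes, CR45199, CR44030, CR44029 and CR45124, and all had mean relative signals under 1.

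The motifs TATCGATA and GCAACNCT were found at a minority of the 136 summits, and also at a minority of the peaks at protein-coding starts. The 11 motifs were searched within 100 bp of the summit on both strands, and a match describes letters only. The DREF element TATCGATA was at 7 of 136 (5.15%), against 16.3% at protein-coding starts and 2.40% at no annotated start. In windows of the same width centred on far noncoding starts with no pooled peak it was at 0.598%. GCAACNCT was at 9 (6.62%), against 8.77%, 4.90% and 1.92%. One or other was at 16 (11.8%, interval 6.88 to 18.4%), with none holding both, against 24.0%, 7.03% and 2.52%. The interval of 11.8% stays below 24.0% and above 2.52%, and it holds the 7.03% at no annotated start. The 2.52% comes from windows centred on annotated starts, while 102 of the 136 summits lay over 100 bp from theirs. Median GC was 36.8% around the 136 summits and 40.8% in those start windows. Whether centring or base composition alters the motif shares was not tested.

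Too few peaks held these motifs to rank them by strength. The median relative signal was 0.791 with TATCGATA (7 peaks) and 0.755 with GCAACNCT (9 peaks), against 0.732 for the peaks without each. Among the 15 strongest, 1 held TATCGATA and 2 held GCAACNCT. The printed Hsromega and CR31044 stretches hold GCAACNCT matches and the printed CR45806 stretch holds TATCGATA, while CR43838 (1.50, 1.13 and 1.58), CR45541 (1.16, 0.906 and 1.44) and CR44417 (1.12, 1.37 and 0.870) are further examples. The TATA box TATAAA was at 31.6%, close to 32.0% at protein-coding starts and 35.5% at no annotated start, and was at 9 of the 15 strongest.

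Of the other motifs, GAGAG was at 28.7%, against 16.6% at protein-coding starts and 25.2% at no annotated start. The initiator core TCAGTT was at 16.9%, against 11.6% at protein-coding starts and 13.1% at no annotated start. In the same order, the E-box CAGCTG was at 7.35%, against 15.8% and 7.57%. The Ohler motif 1 core GGTCACACT was at 1.47%, against 7.84% and 0.327%, and the Ohler motif 6 core GGTATTTT at 1.47%, against 6.06% and 1.80%. The Zelda site CAGGTAG and the tRNA B box core GGTTCGA were at 1 peak each (0.735%) and the Pho core GCCATNTT at 3 (2.21%). Over all IDR peaks the shares were 0.715%, 1.49% and 4.16%. The windows of all far noncoding starts are centred on the start and not on a summit. Over them, TATCGATA was at 0.764%, GCAACNCT at 1.91%, GAGAG at 21.9%, TATAAA at 24.4% and TCAGTT at 17.2%. In those windows CAGGTAG was at 0.987%, GGTTCGA at 5.79% and GCCATNTT at 3.69%.

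At the limits of the rule, the noncoding peaks just inside the protein-coding distance were those at CR43916, Uhg4 and CR44429, at 517, 542 and 543 bp, and peaks just outside were at CR43995, tRNA:Gly-TCC-1-2 and CR43148, at 493, 473 and 469 bp. On the noncoding side, CR45199, CR44868 and CR46535 were inside at 499, 495 and 493 bp. A summit near CR44619 at 517 bp from it, with a pooled signal of 1338, fell just outside, while a second one at 469 bp, with relative signals of 2.73, 2.29 and 3.52, was kept.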

How the data were processed

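Peaks came from the authors' deposited lists for dm6: 1 optimal IDR list, 1 pooled relaxed list of 30000 peaks and 1 list of 30000 peaks for each of 3 replicates. For the aligner, peak caller and IDR cutoff, names and settings were not given in the sources used here. Each peak carries a signal, which is the authors' deposited enrichment value, whose scale depends on depth, so it was ranked within a list or divided by the replicate median over matched IDR peaks (77.8, 99.0 and 132.8 in replicates 1, 2 and 4). Depth per library is unknown, and dm3 lists were not used. Gene starts came from Ensembl release 115 and sequence from RefSeq on the 6 main chromosome arms. Coordinates are 1-based. All values are descriptive: with 1 group, no test was made. Classification was checked on simulated data. Python 3.11.15, pandas 2.3.3, NumPy 2.4.6 and SciPy 1.17.1 were used. Genes named are the 15 strongest peaks, the 3 strongest of each class, members of 7 gene lists and peaks nearest the distance limits; others were chosen after their values were seen. The peaks, lists and motifs were chosen with earlier results of these data known.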

Additional observations from a re-analysis of the deposited data

How the results depend on the processing

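Keeping only IDR peaks above the list's median signal left 50 of the 136, with a median relative signal of 1.29, 96% recovery in all 3 and a median position of -107.5 bp. A noncoding window of 100 bp, added after seeing the data, left 34 peaks. Windows of 250 and 1000 bp gave IDR shares of 20.1% and 14.5% of pooled peaks and 3.39% and 7.03% of genes with a peak, and pooled peaks gave 24.1%. Recovery was 30.9% with a match within 50 bp and 19.9% with a list of fewer strongest summits. With 50 and 150 bp around the summit, GAGAG was at 16.9% and 37.5%, TATAAA at 16.2% and 44.1%, and TCAGTT at 8.09% within 50 bp. CAGGTAG was at 0% within 50 bp or with the 250 bp window, and GGTTCGA at 0% within 50 bp. Leaving out replicate 1, 2 or 4 (keeping IDR peaks recovered in both others) left 76, 92 and 74 peaks, with IDR shares of 9.33% to 11.6%, 3.20% to 3.70% of genes with a peak and median positions of -111 to -68 bp. Over all 136 peaks, the median relative signal from the other pair of replicates was 0.706 to 0.829. As shares of the 136, recovery in both remaining replicates was thus 54.4% to 67.6%, the same counts. Fewer peaks remain in each case by construction. Unknown depth limits the precision of each value.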
